A study of Mus musculus with 6 samples.

Results

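A stretch of 257 neighbouring probes on a mouse lncRNA array, design numbers 012648 to 012904, was examined in cardiac biopsies taken after ischemic preconditioning (IPC). The design number is the number that ends a probe's name, and all 257 numbers of the stretch were present among the 59709 non-control probes. The block was chosen for its position. Its neighbour on the lower side, 012647, was located as Gm11839, and its neighbour on the upper side, 012905, as Gm15502. Both of these transcripts were much lower in the area at risk (AAR) than in the remote myocardium (RM) labelled with the same mice. The question was whether the loss of signal in the IPC AAR was shared by the probes that lie between them. It was not shared by most of them: in the AAR of the IPC mice, 23 of the 206 members tested were lower than in their RM (11.2%, against 13.3% of all probes tested) and 14 of 196 were lower than in the AAR of the sham mice (7.14%, against 5.78%).

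Gm names are given to predicted mouse gene models, and many of them are pseudogenes. A pseudogene is a copy of a gene that no longer encodes the protein of its parent. Processed pseudogenes arose when a messenger RNA was copied back into DNA and inserted elsewhere, so they lack the introns and usually the promoter of the parent gene. Some are nevertheless transcribed, and a few such RNAs are known to act as non-coding RNAs. Because a pseudogene resembles its parent, a probe designed on one can also bind the RNA of the other, and whether the members read the pseudogene or a parent gene was not tested.

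Biopsies came from 4 mice, recorded as strain C56BL7, female and 12 months old, where the methods name the strain C57BL6. In the IPC mice, 004 and 008, the left coronary artery was tied and released in 4 cycles, with 4 min of ischemia and 4 min of reperfusion each in the sample records and slightly longer steps in the methods, and a final reperfusion of 30 min followed. By the labels each IPC mouse gave an AAR biopsy, taken next to the ligation, and an RM biopsy, which the methods place in the right ventricle. Region of the heart and ischemia therefore cannot be told apart in that comparison. The sham mice, 012 and 013, had the procedure without IPC and gave AAR biopsies, so there were 3 groups with 2 arrays each. The methods name mice of both sexes where the sample records name females alone. The probes of Xist, the RNA that coats the inactive X chromosome in female cells, go against the label of the RM arrays: the Xist probe 014436 read 13.31 and 13.28 on the log2 scale in the AAR of the IPC mice, 7.40 and 7.71 in their RM and 12.95 and 12.80 in the sham mice. Another Xist probe, 017613, read 9.49 and 9.60, then 5.71 and 5.58, then 9.20 and 9.18 in the same order of groups. Whether the RM biopsies came from the mice on their labels was not tested. Animal and sex therefore cannot be told apart from region and ischemia in any comparison with the RM, and "their RM" below follows the labels. The comparison of the IPC AAR with the sham AAR uses the RM arrays only through the quantile normalization, which was made over all 6 arrays. The IPC arrays lay on one slide and the sham arrays on another, so slide and sham cannot be told apart. The files name no probe for a gene that marks heart muscle or another cell type, so the tissue label was not tested. In bulk samples, fewer cells of a type and less RNA per cell cannot be told apart.

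The files give no transcript name for any member, so what the members detect is inferred from their position. The 20 lncRNAs that the study lists with the strongest changes were located through their group means. For each of them the nearest probe lay within 0.12% of the listed means and the next nearest at least 3.16% away. Of the 20, 11 carry Ensembl transcript identifiers and fell between design numbers 012617 and 018557. In 53 of their 55 pairs the order of the identifiers was that of the design numbers. Both exceptions lie at the lower edge of the block. Gm11400 (ENSMUST00000120853) at 012617 and Gm5379 (ENSMUST00000120973) at 012621 come before Gm11839 (ENSMUST00000120647) at 012647, although their identifiers are higher. Of the 11 transcripts, 7 had an entry in the RefSeq gene table by their symbol, and 5 of these entries were pseudogenes, namely Gm11839, Gm11400, Gm5379, Gm8459 and Gm15466. Gm15502 was not in that table. None of the 20 lay inside the block (0 of 20). That the members are Ensembl transcripts of pseudogene type is therefore an inference from the order, and that order has exceptions next to the block.

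Against the RM, the transcripts that bracket the block fell further in the IPC AAR than any member tested. Against the sham AAR only Gm11839 did. Gm11839 read 4.74 and 4.00 in the AAR of the IPC mice, 10.92 and 10.90 in their RM and 9.71 and 10.64 in the sham AAR, as quantile-normalized log2 intensities. Both AAR arrays of the IPC mice were below all 4 others, and the differences were -6.53 ± 0.29 (SE; adjusted p = 0.00161, limma) against the RM and -5.80 ± 0.44 (adjusted p = 0.0187) against the sham AAR. Gm15502 read 8.80 on both IPC AAR arrays, 15.25 and 15.20 in RM, and 9.50 and 14.80 in the sham AAR. Its difference from the RM was -6.43 ± 0.07 (adjusted p = 0.000723). One sham array was near the IPC AAR and the other near the RM, and the difference from the sham AAR, -3.35 ± 1.89, did not pass (adjusted p = 0.265). These transcripts had been picked by the study for their change on these same arrays, so their values describe the edges and test nothing.

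The first and the last member of the block did not follow these neighbours. Probe 012648, next to Gm11839, read 14.83 and 14.80 in the AAR of the IPC mice, 15.02 and 14.97 in their RM and 14.97 and 15.22 in the sham AAR, with differences of -0.18 ± 0.07 from the RM (adjusted p = 0.127) and -0.28 ± 0.17 from the sham AAR (adjusted p = 0.287). Probe 012904, next to Gm15502, read 7.72 and 7.65, then 7.17 and 7.79, then 7.49 and 6.75 in the same order of groups, with differences of 0.20 ± 0.25 (adjusted p = 0.529) and 0.57 ± 0.30 (adjusted p = 0.243). The probe on the far side of Gm15502, 012906, was lower than in the RM, with a difference of -4.24 ± 0.17 (adjusted p = 0.00133). Against the sham AAR its difference was -2.64 ± 0.84, which did not pass (adjusted p = 0.119).

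Most members gave a signal in every group. Of the 257 members, 182 were well above background on all 6 arrays (70.8%, against 57.9% of all probes), 36 on none (14.0%, against 15.2%) and 39 on some. By array, 199 and 200 members gave such a signal in the AAR of the IPC mice and 210 on both RM arrays, and in the sham AAR the shares were 73.2% and 77.8% of the members. The share of all probes detected also differed by array, from 61.0% on the array of sham mouse 012 to 80.5% on the RM array of mouse 008, and its part in the results was not tested. Members that were detected on both RM arrays and on neither IPC AAR array numbered 4 of 205, where the share over all probes was 8.78%. They were 012659, 012711, 012803 and 012813. The lowest signal that counted as well above background was higher on the IPC AAR arrays (4.13 and 3.88) than on the RM arrays (2.98 and 2.73), and 012711 read more in the IPC AAR, 3.50 and 3.68, than in the RM, 2.99 and 3.06. Against the sham AAR there was 1 such member of 186, probe 012659 (1.54% over all probes). The opposite, detection on both IPC AAR arrays and on neither RM array, was seen in 0 of 192 members (0.248% over all probes).

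Between the IPC AAR and the IPC RM, 206 members could be tested, since both arrays of one or both groups showed them well above background, and the other 51 could not. A member was called when limma's Benjamini-Hochberg adjusted p, taken over all 46232 probes tested, was below 0.05 and the fold change was above 2. In the IPC AAR 23 members were lower (11.2%, against 13.3% of all probes tested) and 11 were higher (5.34%, against 7.29%), and 172 were not called. The median log2 difference of the members was 0.17, and that of all probes tested was 0.20. At an unadjusted p below 0.05 there were 121 members (58.7%, against 58.0%). A difference within 0.5 of 0 was found in 100 members (48.5%, against 47.5%). Large losses were among the calls: 8 members that were well above background on an IPC AAR array were lower by more than 4-fold (3.88%, against 4.39%) and 4 by more than 8-fold (1.94%, against 1.92%). The direction of the calls depended on the scaling. With each array set to its 75th percentile in place of quantile normalization, 16 members were lower (7.77%, against 12.9% of all probes tested) and 54 higher (26.2%, against 13.2%), so that 77.1% of the members' calls were higher against 32.4%. That scaling moved the median of all probes tested from 0.20 to 0.33 and that of the members from 0.17 to 0.51. The number of lower calls, among the members and over all probes tested, also changed when an RM array was left out. The lone RM array was then given the spread of the IPC AAR pair. The median of the members was 0.15 without the RM array of mouse 004 and 0.19 without that of mouse 008.

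**Figure D1:**
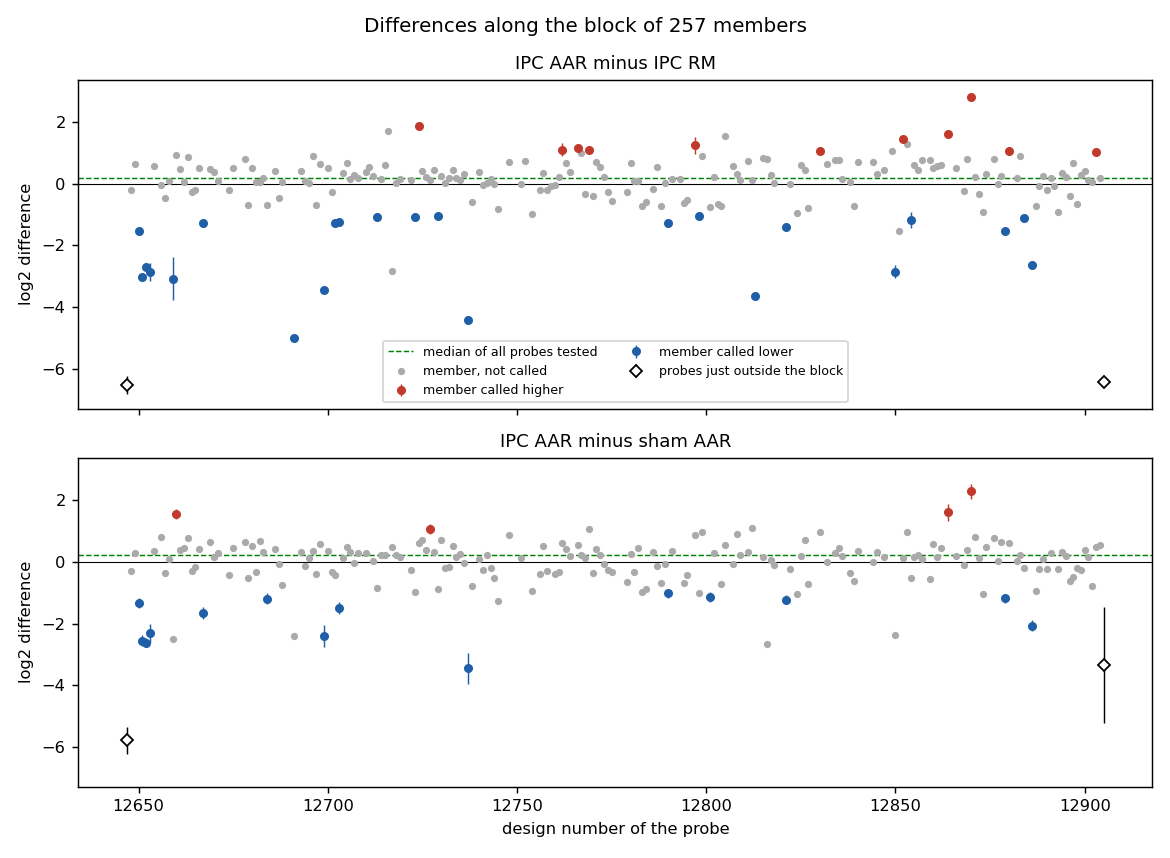
Log2 difference of each member tested against its design number, for the IPC AAR minus the IPC RM (top) and minus the sham AAR (bottom). Blue and red points are members called lower and higher, with standard errors, grey points were not called, diamonds are Gm11839 and Gm15502 just outside the block, and the dashed line is the median of all probes tested. Of the members tested, 48.5% lie within 0.5 of 0 in the top panel, and no member falls as far as Gm11839, whose differences were -6.53 and -5.80.

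The largest loss inside the block was that of probe 012691. It read 5.54 and 5.68 in the AAR of the IPC mice, 10.61 and 10.62 in their RM and 7.27 and 8.77 in the sham mice. The sham arrays thus lay between the other groups, and none of the groups overlapped. Its signal was 32.0-fold lower than in the RM (log2 difference -5.001 ± 0.09, adjusted p = 0.000723), while the difference from the sham AAR, -2.41 ± 0.56, did not pass (adjusted p = 0.0751). With another background correction, normexp, the difference from the RM was -3.80. Probe 012737 read 4.84 and 4.81 in the AAR of the IPC mice, 9.30 and 9.20 in their RM and 7.60 and 8.96 in the sham mice. The IPC AAR was the lowest group here too, with differences of -4.43 ± 0.08 from the RM (adjusted p = 0.000723) and -3.46 ± 0.50 from the sham AAR (adjusted p = 0.0383). Probe 012699 read 8.98 and 9.07 in the AAR of the IPC mice, 12.48 and 12.49 in their RM and 10.97 and 11.89 in the sham AAR. Its differences of -3.46 ± 0.08 (adjusted p = 0.000761) and -2.40 ± 0.36 (adjusted p = 0.0397) both passed.

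The longest run of consecutive tested members that fell in the IPC AAR relative to the RM had 4 members, 012650 to 012653, and lay close to Gm11839. Probe 012650 read 10.57 and 10.76 in the AAR of the IPC mice, 12.12 and 12.25 in their RM and 11.91 and 12.07 in the sham AAR. Probe 012651 read 4.85 and 4.83, then 7.91 and 7.82, then 7.26 and 7.54 in the same order. Probe 012652 read 5.50 and 5.60, then 8.27 and 8.23, then 8.25 and 8.10. In all 3 the sham arrays sat next to the RM arrays, and the IPC AAR stood apart below both. The differences from the RM were -1.52 ± 0.11, -3.02 ± 0.08 and -2.69 ± 0.08, and those from the sham AAR were -1.33 ± 0.17, -2.56 ± 0.17 and -2.62 ± 0.15. Each of these passed, with adjusted p between 0.000848 and 0.00396 against the RM and between 0.0164 and 0.0309 against the sham AAR. Probe 012653 read 4.07 and 4.82 in the AAR of the IPC mice, 7.42 and 7.19 in their RM and 6.63 and 6.91 in the sham AAR, and was not well above background on the AAR array of mouse 004. Its differences were -2.86 ± 0.30 (adjusted p = 0.00746) and -2.32 ± 0.32 (adjusted p = 0.0349). Whether these neighbouring probes detect one transcript or several was not tested. Probe 012850, named after its value was seen, was likewise dim on that array. It read 3.77 and 4.28 in the AAR of the IPC mice, 6.91 and 6.86 in their RM and 5.92 and 6.87 in the sham AAR, with differences of -2.86 ± 0.21 from the RM (adjusted p = 0.00375) and -2.37 ± 0.41 from the sham AAR (adjusted p = 0.0501). The other runs were 012702 to 012703 and 012884 to 012886, with 2 tested members each.

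Toward the upper end of the block, probe 012886 read 7.53 and 7.55 in the AAR of the IPC mice, 10.18 and 10.17 in their RM and 9.47 and 9.76 in the sham AAR. It was the lowest in the IPC AAR, with differences of -2.63 ± 0.07 from the RM (adjusted p = 0.000891) and -2.07 ± 0.17 from the sham AAR (adjusted p = 0.0198). Smaller losses were found for probe 012879 (-1.52 ± 0.07) and probe 012821 (-1.39 ± 0.07) against the RM, and both were also lower than in the sham AAR (-1.18 ± 0.15 and -1.22 ± 0.14). Probe 012702 differed from these. It read 11.49 and 11.56 in the AAR of the IPC mice, 12.78 and 12.82 in their RM and 11.79 and 12.09 in the sham AAR, so the sham arrays were nearer to the IPC AAR. Its difference from the RM was -1.28 ± 0.08 (adjusted p = 0.00269), and that from the sham AAR, -0.41 ± 0.18, did not pass (adjusted p = 0.181).

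A pair of members were below the RM in the IPC AAR (limma) and were not well above background on either IPC AAR array, so that their change is only bounded. Probe 012659 was at least 2.64-fold lower than in the RM, where it read 5.51 and 5.30, and the sham arrays read 4.88 and 4.79, where the difference from the sham AAR did not pass (adjusted p = 0.0913, limma). Probe 012813 was at least 2.05-fold lower than in the RM, where it read 5.14 and 4.94, and the sham arrays read 3.004 and 4.17, a comparison that could not be tested since neither group was well above background on both arrays. In these bounds the dim arrays stand at the lowest signal that counted as well above background, or at the probe's own reading where that was higher. The bounds hold for the main processing only. With normexp background correction the log2 differences from the RM were -0.59 for 012659 and -0.62 for 012813, smaller losses than the bounds. The call of 012659 was lost in 6 of the 13 alternative analyses and that of 012813 in 1 of 13.

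Of the 23 members whose signal in the IPC AAR was below the RM, 19 were well above background on all 4 arrays. Both sham arrays were nearer to the RM than to the IPC AAR in 18 members, both were nearer to the IPC AAR in probe 012702, and they were split in 4. Over the 182 members detected on every array both sham arrays were nearer to the RM in 95. The sham mice themselves differed: array 012 read below array 013 in 19 of the 23, by up to 1.64 on the log2 scale. Array 012 was the lower sham array in 84 of the 182 members, and in 2 of the 11 members higher in the IPC AAR than in the RM. Among the 182 members detected on every array the median difference between replicates was 0.08 in the IPC AAR and also in the RM, and 0.24 in the sham AAR. It was above 1 in 1, 0 and 11 members. Over all probes detected on every array the medians were 0.11, 0.11 and 0.31, and 2.57%, 0.523% and 7.64% of the probes were above 1.

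A smaller number of members were higher in the IPC AAR. Probe 012870 read 10.38 and 10.40 in the AAR of the IPC mice, 7.58 and 7.53 in their RM and 8.35 and 7.84 in the sham AAR. It was 7.11-fold higher than in the RM (log2 difference 2.83 ± 0.07, adjusted p = 0.000848) and 4.90-fold higher than in the sham AAR (2.29 ± 0.23, adjusted p = 0.0240). Probe 012864 read 7.51 on both IPC AAR arrays, 5.97 and 5.80 in RM and 6.22 and 5.56 in the sham AAR. Its differences, 1.63 ± 0.10 (adjusted p = 0.00266) and 1.62 ± 0.27 (adjusted p = 0.0476), were alike against both groups. In these members, then, the IPC AAR stood above both other groups.

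In other members the sham arrays were nearer to the IPC AAR, and the RM stood apart. Probe 012852 read 8.63 and 8.71 in the AAR of the IPC mice, 7.19 and 7.21 in their RM and 8.49 and 8.56 in the sham AAR. It was higher than in the RM by 1.47 ± 0.08 (adjusted p = 0.00217), with a difference of 0.14 ± 0.15 from the sham AAR (adjusted p = 0.503). Probe 012724 read 14.18 and 14.09, then 12.26 and 12.26, then 13.80 and 13.24. It was higher than in the RM by 1.87 ± 0.08 (adjusted p = 0.00147), and its difference from the sham AAR was 0.61 ± 0.25 (adjusted p = 0.166). The fifth largest increase was that of 012797, which was higher than in the RM by 1.25 ± 0.27 (adjusted p = 0.0319), a call that was lost in 6 of the 14 alternative analyses. Its difference from the sham AAR was 0.87 ± 0.22 (adjusted p = 0.0833). All 11 members higher in the IPC AAR were well above background on all 4 arrays. Both sham arrays were nearer to the RM in 6 of them, nearer to the IPC AAR in 2 and split in 3.

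**Figure D2:**
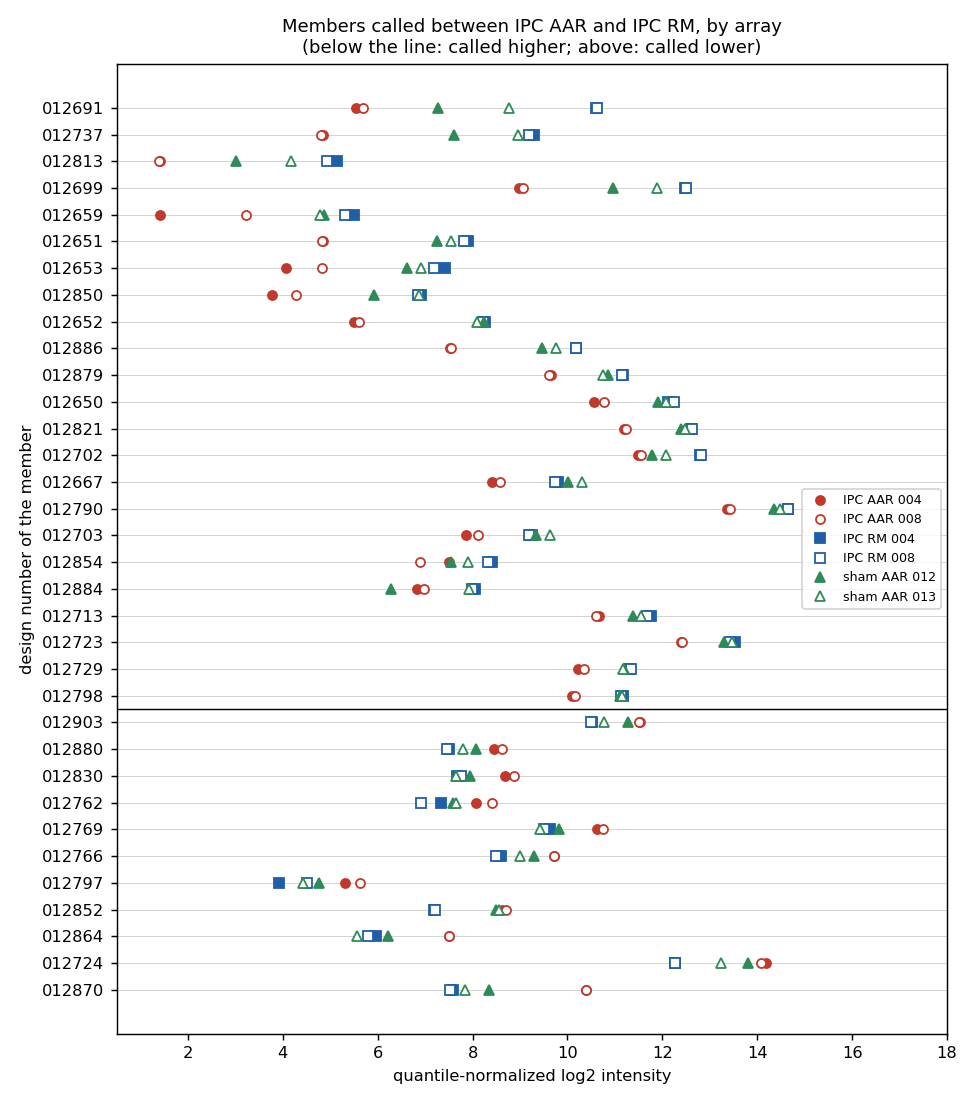
Quantile-normalized log2 intensity on each of the 6 arrays for the 23 members called lower (above the line) and the 11 called higher (below the line) in the IPC AAR relative to the RM. Circles are the IPC AAR, squares the IPC RM and triangles the sham AAR, filled for mice 004 and 012 and open for mice 008 and 013. The members were chosen by the difference between circles and squares, and both sham arrays are nearer to the RM in 18 of the 23 and 6 of the 11, against 95 of the 182 members detected on every array.

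Against the sham AAR, which shares the IPC AAR arrays with the comparison above, 196 members could be tested. In the IPC AAR 14 were lower (7.14%, against 5.78% of the 40161 probes tested) and 4 were higher (2.04%, against 2.78%). With quantile normalization over the 4 arrays compared, and so without the RM arrays, 17 were lower (8.67%, against 6.03%) and 6 higher (3.06%, against 2.99%). At an unadjusted p below 0.05 there were 62 (31.6%, against 35.8%), and 118 lay within 0.5 of 0 (60.2%, against 51.3%). The median difference was 0.14, and 0.23 over all probes tested. Without sham mouse 013 these medians were 0.03 and 0.14. A loss of more than 4-fold was found in 6 members well above background on an IPC AAR array (3.06%, against 2.34%) and of more than 8-fold in 1 (0.510%, against 0.944%). That member was probe 012737, and the others were 012652, 012651, 012699, 012653 and 012886, whose values are given above. The 4 higher members were 012870 and 012864, described above, probe 012660 (1.56 ± 0.18, adjusted p = 0.0268) and probe 012727 (1.07 ± 0.16, adjusted p = 0.0397), of which the latter pair were well above background on 5 of the 6 arrays. The counts, among the members and over all probes tested, depended on which array was left out. A lone array was then given the spread of the other group, and its part in the change was not tested. Without the IPC AAR array of mouse 004 or 008 the median of the members was 0.13 and 0.14, and without sham mouse 012 it was 0.11. With no filter on dim probes limma called 0 members (68 at an unadjusted p below 0.05), and the methods' t-test also gave 0 after adjustment (71 unadjusted). Over all probes tested the shares were 0% and 0.00249% in each direction.

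Counting ranks needs no fitted spread. Both IPC AAR arrays were below all 4 other arrays in 53 of 206 members (25.7%, against 20.4% of 46256 probes), and above all 4 in 68 (33.0%, against 34.6%). The share below was 28.4% in the 257 design numbers before the block and 28.7% in the 257 after it. For a single probe with 2 arrays a group, the smallest p that an exact two-sided permutation test allows is 0.333, so no member can be called by such a test.

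Between the IPC RM and the sham AAR, neither of which is preconditioned AAR, limma called 0 of 205 members (0.00% of the 46061 probes tested in either direction). At an unadjusted p below 0.05 there were 33 members (16.1%, against 16.4%). The methods' t-test gave 0 after adjustment and 32 before. The fit over all 6 arrays called 1 member (0.488%, against 0.217% of all probes tested), probe 012852, lower in the RM (log2 difference -1.33). Without sham mouse 012 limma called 6 members lower in the RM (2.87%, against 4.00% of all probes tested) and 1 higher (0.478%, against 2.96%), and without sham mouse 013 it called 10 lower (4.83%, against 4.46%) and 11 higher (5.31%, against 10.2%). The median difference was -0.06, and 0.03 over all probes, and 155 members (75.6%, against 68.8%) differed by less than 0.5. The largest differences were those of probe 012717 and probe 012816, which were chosen for this size. Probe 012717 read 9.11 and 4.81 in the RM of the IPC mice and 3.81 and 3.47 in the sham mice, and its 3.32 ± 1.57 rested on the RM array of mouse 004 (adjusted p = 0.380). Probe 012816 read 3.10 and 2.90 in the RM of the IPC mice and 7.34 and 5.62 in the sham mice, a difference of -3.48 ± 0.64 (adjusted p = 0.193).

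The neighbourhood of the block also held losses and gains. In the 257 design numbers before it, 22 of 208 probes tested were below the RM in the IPC AAR (10.6%) and 15 were higher, with a median of 0.09. In the 257 after it, from 012906 on, 28 of 195 were lower (14.4%) and 5 higher, with a median of 0.05. Against the sham AAR 12 of 197 (6.09%) and 12 of 176 (6.82%) were lower. The 24 other windows of 257 design numbers around the block ranged from 1.66% to 16.1% lower against the RM, and 6 of them had a larger share than the block. Against the sham AAR they ranged from 0.649% to 9.64%, and 4 had a larger share. The windows fell into 2 stretches. From the first window to the one that ends at 013675, between 7.91% and 16.1% of the probes tested were lower than in the RM, and between 61.1% and 79.4% of their probes gave a signal well above background on every array. From 013676 on these shares were 1.66% to 4.95% and 45.5% to 56.4%. The block thus lies in the stretch with the higher shares of both. The limit at 013675 was seen only after the values were known, and the part of detection in the share of losses was not tested.

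**Figure D3:**
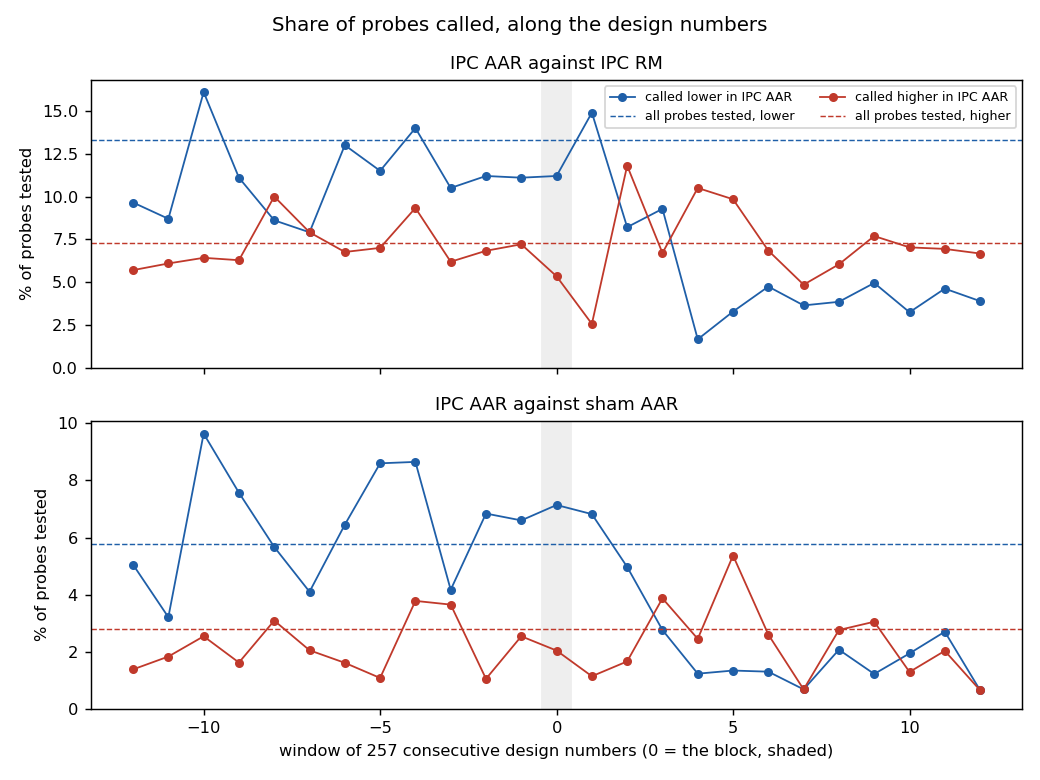
Share of probes tested that were called lower (blue) or higher (red) in the IPC AAR, in 25 windows of 257 consecutive design numbers with the block at 0 (shaded), against the IPC RM (top) and the sham AAR (bottom). Dashed lines are the shares over all probes tested, and the share lower drops from the window 4 places after the block onward, to 1.66% and 1.23% in that window.

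Inside the block, of 10 consecutive parts with 25 or 26 members each, the first, 012648 to 012673, held 6 members lower than in the RM among 22 tested and 5 that were lower than in the sham AAR. The fifth, 012751 to 012776, held none in either comparison and 3 members higher than in the RM. The remaining parts held 1 to 4 members lower than in the RM. The member counts are small, and the differences between parts of the block were not tested.

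Members were not spread evenly over spot brightness, which depends on the probe as well as on the RNA. With all probes tested against the RM set in 4 equal bins by mean signal, 107 of the 206 members fell in the brightest bin. In that bin 12 members were lower than in the RM (11.2%, against 10.4% of all probes in it). In the next bin 7 of 42 were lower (16.7%, against 15.7%), and in the dimmer bins there were 2 of 33 (6.06%, against 13.3%) and 2 of 24 (8.33%, against 13.6%). Against the sham AAR the share in the second brightest bin was 6 of 41 (14.6%, against 8.45%), and in the brightest it was 6 of 99 (6.06%, against 5.82%). Whether members differ from other probes of like brightness was not tested.

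**Figure D4:**
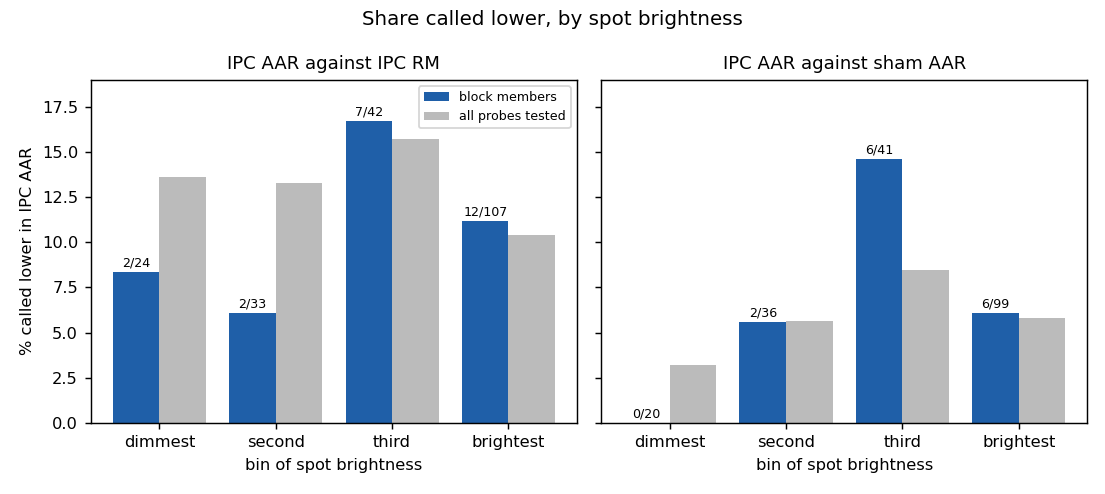
Share of probes tested that were called lower in the IPC AAR, in 4 bins of spot brightness that hold equal numbers of all probes tested, for block members (blue, with counts) and all probes (grey), against the IPC RM (left) and the sham AAR (right). Against the RM the bars of the 2 brighter bins are alike, at 16.7% against 15.7% and 11.2% against 10.4%.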

How the data were processed

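The authors hybridized Cy3-labelled cRNA of 6 biopsies and read the spots with Agilent's Feature Extraction software (11.0.1.1 per the file headers, array design on mm9). The deposited intensity values used are the processed signals, background-corrected within each array and not normalized between arrays. The well-above-background, saturation and outlier flags deposited with them are yes/no values (no spot was saturated). The 6 value columns of the series table match no sample record and were not used.

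Control spots, 20 negative-control probes and outlier spots (17 to 29 per array) were left out. Log2 values were averaged over the spots of a probe (15 probes had several) and quantile normalized over 6 arrays (R 4.3.3, limma 3.58.1). Probes well above background on both arrays of either group were tested with lmFit and eBayes on the 4 arrays in question, and called at an adjusted p below 0.05 and a fold above 2. Apart from the bins of spot brightness, no spot is compared with another in level. The 2 arrays of a group come from different mice, and the number of arrays limits the precision. The IPC biopsies are paired by mouse in the labels, and across the 46232 probes tested the correlation of the mouse differences in AAR and RM was -0.09. The script was tested on simulated data.

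The block, the lists and the tests were chosen with earlier results of these data known. Named members were, among those called and well above background on all 4 arrays compared, the 10 largest losses and 5 largest gains against the RM and up to 5 and 3 against the sham AAR, then up to 5 dim in both IPC AAR arrays, and the longest run, and 012648, 012904, 012906, 012717, 012816, 012850, 012660, 012727, 012711 and 012803 were added. Transcripts were located by matching the study's listed group means. Gene classes come from RefSeq (GRCm38.p6), so no coordinates are given. Probe sequences were not used here.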

Additional observations from a re-analysis of the deposited data

How the results depend on the processing

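Of the 10 largest losses against the RM among members well above background on all 4 arrays 7 kept their call under the 14 alternatives, and of the 5 gains 4 did. Outside that limit, 012659 lost its call in 6 and 012653 in 3 of 13. The 5 losses and 2 gains named against the sham AAR each lost theirs in 4 or 5 of 13. With 75th percentile scaling 54 members were higher than in the RM (26.2%, against 13.2% of all probes tested) and 12 higher than in the sham AAR (6.12%, against 5.45%), with medians of 0.51 and 0.32, and the median of the RM against the sham AAR was -0.25. With normexp background correction 17 were lower than in the RM (8.25%, against 7.74%) and 6 higher (2.91%, against 3.14%, median 0.11). Against the sham AAR 13 were then lower (6.63%, against 4.46%) and 1 higher (0.510%, against 1.62%). Some losses against the RM were smaller with it: 012691 read -3.80, 012737 -2.89, 012651 -1.69, 012652 -1.76, 012659 -0.59 and 012813 -0.62. In brighter members it changed less, with -3.33 for 012699 and -1.29 for 012702. With no filter on dim probes and by the methods' t-test, 0 and 0 members were lower and higher than in the sham AAR. The shares over all probes tested were 0% and 0.00249% in each direction. The fit over all 6 arrays called 1 member lower in the RM than in the sham AAR (0.488%, against 0.217% of all probes tested). With the mouse as replicate block, 22 members were lower and 10 higher in the IPC AAR than in the RM, and the block changed the call of no other named member than 012659 (adjusted p = 0.0567). Leaving out 1 array gave 9 to 23 lower, 4 to 17 higher and a median of 0.15 to 0.19 against the RM, 0 to 29 lower and 0 to 13 higher against the sham AAR, with a median of 0.03 to 0.14, and 0 to 10 lower, 0 to 11 higher and a median of -0.14 to -0.043 for the RM against the sham AAR. Lone arrays were assumed to vary like the other group. Differences that changed sign were small: 012852 against the sham AAR read -0.055 with normexp, and for the RM against the sham AAR 012650 read -0.0063 and 012821 -0.048 with the 75th percentile, 012652 read -0.076 with normexp and -0.0026 without sham 013, and 012864 read 0.082 without RM 008 and 0.32 without sham 012. Without each array in turn 012652 ranged from -0.0026 to 0.14 there, and 012864 from -0.33 to 0.32. The causes were not tested. A fit with slide as a block could not be made. With 2 arrays a group, and a sham pair that differs more than the others, small losses against the sham AAR may not have been detectable.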
